A study of Rattus norvegicus with 6 samples.

Results

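The ribosomal protein genes of the cytosolic ribosome were examined in the hippocampus of rats with Aβ1-42-induced Alzheimer's disease-like changes. They were taken as all protein-coding genes with a RefSeq rat symbol that starts with Rpl or Rps and a number, or with Rplp, without the S6 kinase genes (Rps6k) and pseudogenes. This gave 81 genes of 15168 named genes on the array, 51 of the large and 30 of the small subunit, measured by 141 probes. Each gene was represented by its probe with the highest mean signal over the 6 arrays. The AD group comprised 3 hippocampal samples of adult male Sprague Dawley (SD) rats that had received Aβ1-42 oligomers into the cerebral ventricles. The Sham group comprised 3 hippocampal samples of adult male Sprague Dawley rats that served as sham controls. The paper does not describe what these controls were given. The model rests on the Aβ1-42 injection alone, and the time between injection and tissue collection is not given in the sources used here. Total RNA of each sample was hybridised to 1 single-colour Agilent array.

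The cytosolic ribosome translates messenger RNA into protein. Its small subunit binds the messenger RNA and reads the codons, and its large subunit joins the amino acids and holds the exit tunnel for the new chain. The proteins of both subunits are needed in fixed proportion, and in mammals their messenger RNAs start with a run of pyrimidines (C and T in the DNA), through which the mTOR pathway controls their translation. In neurons, ribosomes are also found in dendrites, where local protein synthesis contributes to synaptic plasticity.

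The starts of genes on which the comparison turns are shown because this pyrimidine run is the sequence feature that ribosomal protein genes share and that the choice of genes did not use. Each line gives 30 bases, 15 before and 15 after the RefSeq gene start, in the build GRCr8, with the longest unbroken run of C and T in capitals. Rpl38 lies at chr10:100200420-100200449 (+), Rpl22 at chr5:168117946-168117975 (+), Rps23 at chr2:23814502-23814531 (+), Rplp0 at chr12:46718376-46718405 (-), Rpl22l1 at chr2:113683181-113683210 (+) and Rps27a at chr14:107488927-107488956 (-).
Rpl38: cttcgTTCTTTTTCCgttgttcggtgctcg
Rpl22: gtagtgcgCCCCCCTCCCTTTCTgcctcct
Rps23: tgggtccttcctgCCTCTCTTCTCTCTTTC
Rplp0: gaccgcaccgcaCTTCTCTCgccaggcgtc
Rpl22l1: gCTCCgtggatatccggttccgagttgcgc
Rps27a: cctaaagggcggTTCCTTCgacccggagac

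The RefSeq table held a start for 66 of the 81 genes, not for Rpl15, Rpl23a and Rpl37l1 among those described here. A run of at least 8 C or T on the gene's strand, in any order, was found in this window in 42 of the 66 genes (63.6%), against 3494 of 27457 gene symbols in the table (12.7%). Rpl22l1, a paralogue of Rpl22, and the first listed start of Rps27a had runs of only 4 and 7. A match describes these letters and not a site in use.

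All but a pair of the genes were measurable. Of the 81 genes, 79 (49 large, 30 small) exceeded the background clearly on 3 or more of the 6 arrays and were tested. Rpl27l2 (1 array above background) and Rpl3l (2 arrays), a muscle paralogue of Rpl3, were not tested. The arrays' 75th percentile signal was 795.3 to 931.6 in AD and 429.2 to 755.1 in Sham, and 70.7% to 79.7% of the 30367 probes were well above background. All AD arrays shared a scan, Sham replicates 1 and 2 shared another of that day and Sham replicate 3 was scanned alone on a different day, so that scan and group cannot be told apart. Several marker lists of other cell types differed between the groups. Of the choroid plexus markers 8 of 10 were tested and 0 passed (5 were higher at an unadjusted p under 0.05), with a summed linear level over all 10 of 80.9 to 135 on the AD arrays and 27.2 to 102 on the Sham arrays, in multiples of the 75th percentile signal. Their median log2 signal above the Sham mean was lower on AD replicate 2 (0.63) than on AD replicates 1 (3.22) and 3 (4.06). The summed level of 9 skeletal muscle markers was 9.74 to 13.8 on the AD arrays and 8.89 to 9.65 on the Sham arrays. Without Pvalb, which is also an interneuron marker, that of the other 8 was 2.31 to 5.98 on the AD arrays, highest on AD replicate 3, and 1.12 to 2.1 on the Sham arrays, and limma called 0 of the 9 (5 higher at an unadjusted p under 0.05). Changes there reached 4.02 for Myh4, 3.48 for Tnnt3 and 3.15 for Ckm. The summed level of 5 blood markers was 6.49 to 13.1 on the AD arrays and 11.7 to 68.1 on the Sham arrays, and S100a8 and S100a9 fell. The endothelial marker Cldn5 and the oligodendrocyte marker Cnp rose under both scalings, each 1 called gene of its list. In each list 1 marker lay below 0 under both scalings, Pecam1 (-0.24 ± 0.27) and Mbp (-0.33 ± 0.21, both with 75th percentile scaling). The summed level of the oligodendrocyte list was 92.9 to 112 on the AD arrays and 106 to 156 on the Sham arrays. That of the endothelial list was 12.3 to 15.4 and 6.11 to 13.3. That of 5 astrocyte markers, with 0 called (1 lower at an unadjusted p under 0.05), was 69.1 to 86.6 and 87.7 to 98.1. The summed level of 6 GABAergic interneuron markers, of which 3 fell, was 36.4 to 40.1 on the AD arrays and 61.6 to 68.2 on the Sham arrays. In each of these lists every marker with a probe, tested or not, was above background on some array. Of 8 hippocampal neuron markers 7 were present and tested, with 0 called. The part of these tissues in the results below was not tested, and in bulk tissue fewer cells of a type and less RNA per cell cannot be told apart.

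The first comparison asked whether the ribosomal protein genes as a group differed between AD and Sham hippocampus. With signals scaled to the 75th percentile of each array, 67 of the 79 genes were lower in AD on average and 12 were higher. The median log2 change was -0.19, with an interquartile range of -0.31 to -0.07, whereas the median over all 22820 tested probes was -0.01. Singly, 3 genes fell, Rpl15, Rpl22l1 and Rpl38 (limma, adjusted p under 0.05), and 0 rose, although 22 were lower and 2 higher at an unadjusted p under 0.05. Those 3 of 79 genes stand beside 8.39% of all tested probes that were called lower, and the 0 beside 4.16% called higher. The 3 AD values lay below all 3 Sham values for 32 genes (40.5%), against 23.3% of all tested probes, and above them for 2 genes (2.53%), against 15.6%.

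This shift was absent under the other scaling. When the arrays were quantile normalised, which gives every array the same distribution of signals, the median log2 change of the 79 genes was 0.02, with 34 genes lower and 45 higher in AD. Rpl15 fell, and Rpl23a and Rps27a rose. The share of all tested probes called lower was then 6.87% and the share called higher 4.27%. The AD values lay below all Sham values for 15 genes (19%), against 21.8% of all tested probes, and above them for 12 genes (15.2%), against 16.8%. Both shares of genes thus lay near those of all probes.

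**Figure D1:**
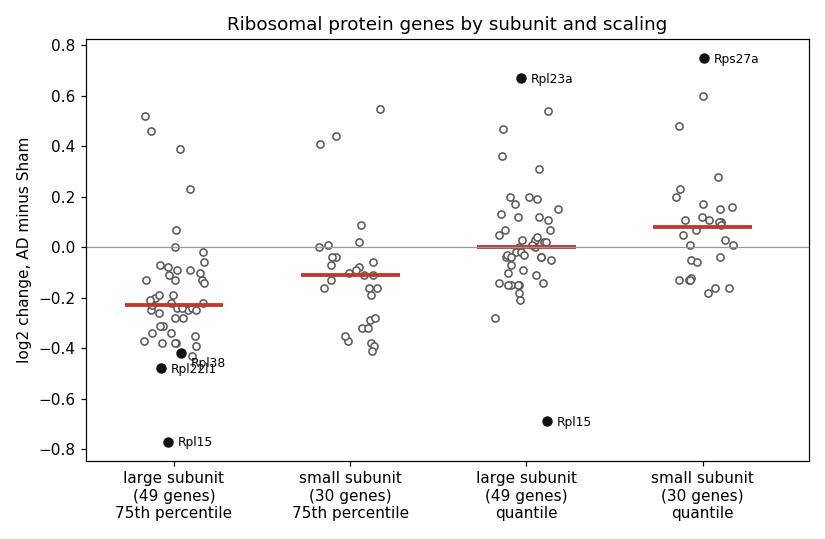
Each point is the log2 change (AD minus Sham, vertical axis) of 1 ribosomal protein gene, by subunit and scaling (horizontal axis), filled and named where the limma adjusted p was under 0.05, and red bars are medians. The medians are -0.23 (large) and -0.11 (small) with 75th percentile scaling and 0.00 and 0.08 with quantile normalization.

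The brightness of the probes moved with this difference between the scalings. Of the 79 genes, 69 were represented by probes in the brightest 10% of all tested probes. The 2282 probes of that band had a median log2 change of -0.20 with 75th percentile scaling, and 18.8% of them were called lower. The ribosomal protein genes among them had a median of -0.21, with 2 of the 69 called lower. With quantile normalization the band had a median of 0.00 and its ribosomal protein genes 0.01. Equal signal distributions hold the median of each band near 0 (-0.01 to 0.01 over the 10 bands), so these values follow largely from the method. From band 1 to band 6, the dimmer probes, the medians with 75th percentile scaling were 0.04 to 0.06.

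**Figure D2:**
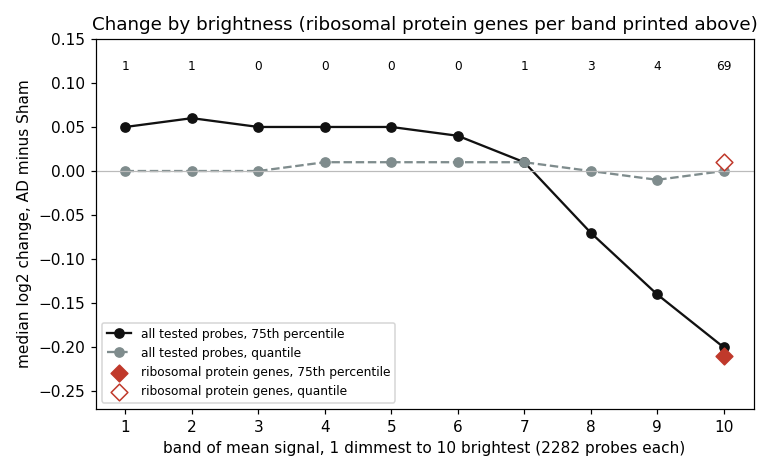
Median log2 change (AD minus Sham, vertical axis) of all tested probes in 10 bands of mean signal, dimmest to brightest (horizontal axis), with 75th percentile scaling (black) and quantile normalization (grey). Diamonds give the 69 ribosomal protein genes of the brightest band, at -0.21 (filled) and 0.01 (open), beside -0.20 and 0.00 for all probes of that band.

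The arrays were then compared one by one. With 75th percentile scaling the median of the 79 genes, relative to the mean of the Sham arrays, took values of -0.18, -0.10 and -0.28 on the AD arrays (replicates 1, 2 and 3, an order kept below) and of -0.04, -0.03 and 0.07 on the Sham arrays. All AD arrays lay below all Sham arrays, set against the same Sham mean, which holds the Sham medians near 0. AD replicate 3, which had the highest 75th percentile signal (931.6), had the lowest of these medians, and Sham replicate 3, with the lowest signal (429.2), had the highest. With quantile normalization the medians were 0.02, 0.04 and 0.01 on the AD arrays and 0.03, 0.01 and -0.05 on the Sham arrays, and the groups overlapped.

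The second comparison set the large against the small subunit. The 49 large-subunit genes had a median log2 change of -0.23, with 43 lower in AD, and the 30 small-subunit genes one of -0.11, with 24 lower (75th percentile scaling). All 3 called genes were of the large subunit, 6.12% of its 49 genes, beside 8.39% of all tested probes called lower. Of the 30 small-subunit genes limma called 0 (6 were lower and 1 higher at an unadjusted p under 0.05). Both shares lay below that of all tested probes. The AD values lay below all Sham values for 24 large-subunit genes (49%) and 8 small-subunit genes (26.7%), beside 23.3% of all tested probes. With quantile normalization they did so for 10 large-subunit genes (20.4%) and 5 small-subunit genes (16.7%), beside 21.8% of all tested probes. The difference between the medians, large minus small, was -0.12 with 75th percentile scaling and -0.08 with quantile normalization, and genes are not replicates, so it was not tested.

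On single arrays the same difference, set against the Sham mean, came to -0.12, -0.08 and -0.11 on the AD arrays and -0.03, -0.02 and 0.05 on the Sham arrays with 75th percentile scaling. With quantile normalization it was -0.08, -0.07 and -0.06 on the AD arrays and 0.00, 0.00 and 0.01 on the Sham arrays. The groups did not overlap under either scaling. Each gene was set against the mean of the same 3 Sham arrays, which holds the Sham values near 0 and gives all AD values 1 common reference. This lack of overlap is therefore not separate from the difference between the medians. The difference was smaller when a gene was given the median of all its tested probes (-0.03) and without Sham replicate 3, which leaves scan day 1 (-0.05), so that the choice of probe and this library each moved it by more than 1.5 times.

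**Figure D3:**
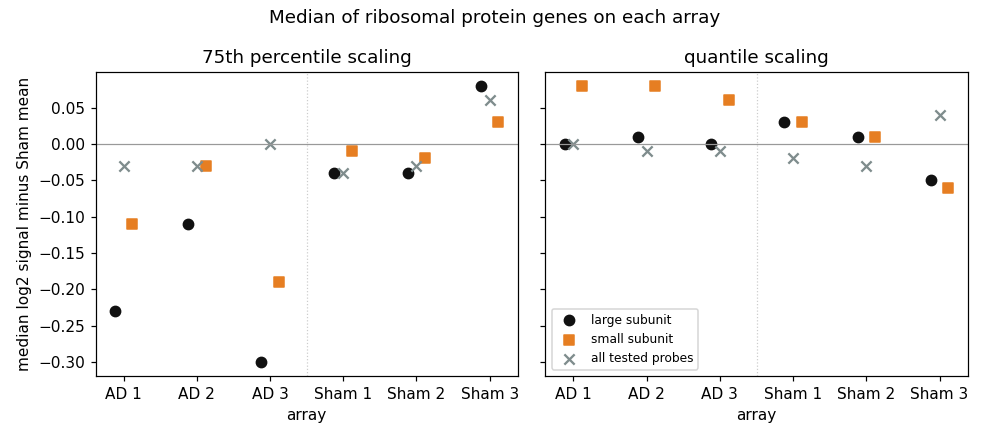
Median log2 signal relative to the Sham mean (vertical axis) of large-subunit genes (black circles), small-subunit genes (orange squares) and all tested probes (grey crosses) on each array (horizontal axis), by scaling. With 75th percentile scaling large-subunit genes are at -0.23, -0.11 and -0.30 on the AD arrays and between -0.04 and 0.08 on the Sham arrays, and with quantile normalization between 0.00 and 0.01 on the AD arrays.

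Rpl15, a large-subunit protein, was lower in AD under both scalings. Its level, the log2 signal relative to the array's 75th percentile, was 0.78, 0.94 and 0.60 on the AD arrays and 1.5, 1.5 and 1.63 on the Sham arrays. All AD arrays were below all Sham arrays, with AD replicate 3 lowest. It fell by 0.77 ± 0.11 on the log2 scale (SE, n = 3 per group, limma adjusted p = 0.0211), a 1.71-fold lower signal, and by 0.69 ± 0.10 with quantile normalization (adjusted p = 0.023). Over 17 alternatives its change was -0.85 to -0.68 with an adjusted p of 0.0152 to 0.179, and it passed in 9. It was measured by a single probe, so no other probe bears on it.

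Rpl22l1 can take the place of Rpl22 in the large subunit, and its gene is repressed by Rpl22 in mouse. Its level was 3.79, 3.74 and 3.59 on the AD arrays and 4.15, 4.15 and 4.27 on the Sham arrays, without overlap. It fell by 0.48 ± 0.09 (adjusted p = 0.0317), but missed the threshold with quantile normalization at -0.28 ± 0.08 (adjusted p = 0.0679). Its other probe had a change of only -0.08 ± 0.13 (adjusted p = 0.719).

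Rpl22 itself, an RNA-binding protein of the large subunit, had levels of 4.59, 4.62 and 4.49 on the AD arrays and 4.81, 4.99 and 5.18 on the Sham arrays. The AD arrays were again all lower, and the Sham arrays spread more widely. At -0.43 ± 0.12 it did not pass (adjusted p = 0.0655), whereas its other probe passed at -0.39 ± 0.09 (adjusted p = 0.0486). With quantile normalization these probes had -0.21 and -0.22, and neither passed (adjusted p = 0.159 and 0.13). All 4 probes of this pair of paralogues had changes below 0 under both scalings.

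Rpl38 is known from mouse for its part in the translation of homeobox messenger RNAs. Its level was 5.96, 6.0 and 5.89 on the AD arrays and 6.32, 6.34 and 6.45 on the Sham arrays, without overlap. It fell by 0.42 ± 0.08 (adjusted p = 0.0335), and the change was -0.14 ± 0.09 with quantile normalization (adjusted p = 0.333), where the groups overlapped. Its other probes had changes of -0.47 ± 0.11 (adjusted p = 0.0491), -0.42 ± 0.11 (adjusted p = 0.0518) and 0.12 ± 0.34.

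The calls of these 3 genes changed when arrays were left out and with scan in the fit. With 75th percentile scaling, leaving out any 1 of AD replicates 1, 2 and 3 or Sham replicates 1 and 2 gave 0 called ribosomal protein genes (limma, 11 to 31 at an unadjusted p under 0.05). The loss ran over the whole array, where these fits called 0 of all tested probes, or 2 without AD replicate 3, against 2864 with all arrays. All calls of lower genes with 75th percentile scaling, those of the gene lists below included, were lost with them. The changes stayed of like size, at -0.85 to -0.68 for Rpl15, -0.52 to -0.42 for Rpl22l1 and -0.44 to -0.38 for Rpl38 over the 6 arrays left out. Leaving out Sham replicate 3 gave 7 genes, all lower in AD, among them the same 3 and Rpl18, Rpl36al1 and Rps18, beside 4453 of all tested probes. With scan as a random block limma called 0 of the 79 genes (7 at an unadjusted p under 0.05) and 0 of all tested probes. With quantile normalization limma also called 0 of all tested probes with scan as a random block. The same held on leaving out any AD array or Sham replicate 1 or 2. Calls in either direction under that scaling, those of the gene lists included, were thus lost there too.

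Rpl23a and Rps27a were the genes that rose with quantile normalization by their representing probes. A dimmer probe also passed as higher for Rpl17 (0.64 ± 0.15, limma adjusted p = 0.0453) and Rps15 (0.38 ± 0.08, adjusted p = 0.039). The representing probes of Rpl17 and Rps15 had 0.07 ± 0.08 and 0.10 ± 0.11 and did not pass. Rpl23a lies at the exit of the peptide tunnel. Its level relative to the 75th percentile was 4.63, 4.86 and 4.39 on the AD arrays and 4.16, 4.21 and 4.11 on the Sham arrays. All AD arrays were above all Sham arrays. Its change of 0.46 ± 0.13 did not pass with 75th percentile scaling (adjusted p = 0.0696), and it rose by 0.67 ± 0.11 with quantile normalization (adjusted p = 0.0245). Its other probe had 0.23 ± 0.15 and 0.38 ± 0.14 under these scalings and did not pass.

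Rps27a encodes a fusion of ubiquitin and a small-subunit protein, which is cleaved after translation. Its level was 4.87, 5.15 and 4.61 on the AD arrays and 4.41, 4.39 and 4.19 on the Sham arrays, so that the groups did not overlap and AD replicate 2 was highest. Its change was 0.55 ± 0.16 with 75th percentile scaling (adjusted p = 0.0713), and it rose by 0.75 ± 0.14 with quantile normalization (adjusted p = 0.0305). The other probe had 0.10 ± 0.11 and 0.29 ± 0.12, and neither passed.

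**Figure D4:**
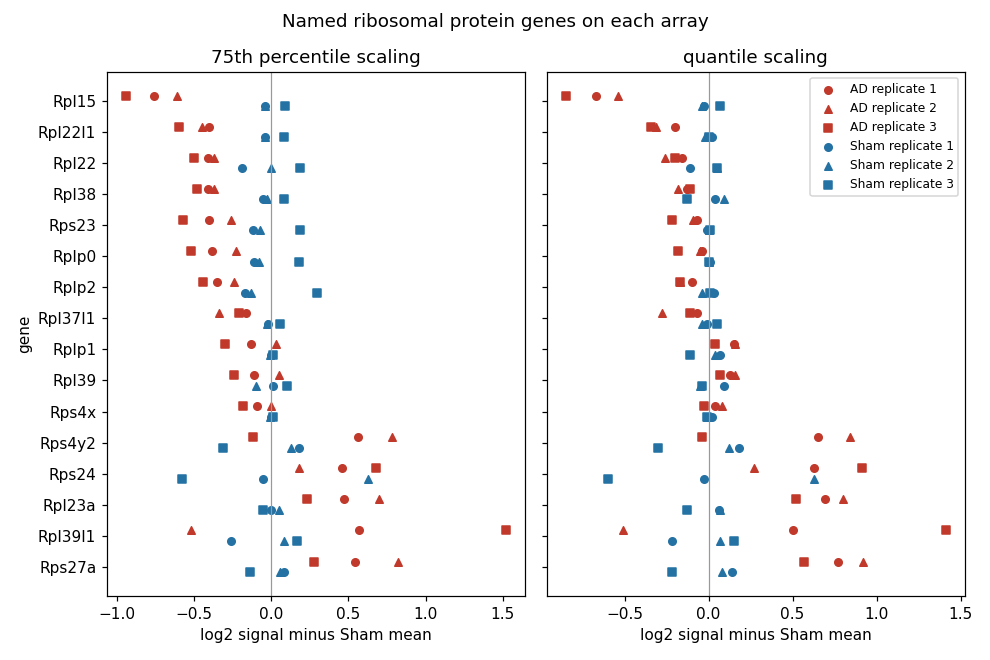
Log2 signal relative to the Sham mean (horizontal axis) of named genes (vertical axis) on the 3 AD arrays (red) and the 3 Sham arrays (blue), with 75th percentile scaling on the left and quantile normalization on the right. Rpl15 separates the groups on the low side and Rpl23a and Rps27a on the high side in both panels, while the AD points of Rpl38 overlap those of Sham in the right panel.

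The ribosomal stalk binds the translation factors of elongation. Its base Rplp0 had levels of 5.80, 5.95 and 5.65 on the AD arrays and 6.07, 6.10 and 6.36 on the Sham arrays. Its partner Rplp2 had 6.54, 6.65 and 6.45 on the AD arrays and 6.72, 6.76 and 7.19 on the Sham arrays. Both were lower on all AD arrays, with changes of -0.38 ± 0.13 (adjusted p = 0.101) and -0.34 ± 0.15 (adjusted p = 0.176) that did not pass. Rplp1, the other stalk partner, had a change of -0.13 ± 0.11 that turned to 0.12 ± 0.09 with quantile normalization, against -0.09 ± 0.08 for Rplp0 and -0.15 ± 0.07 for Rplp2.

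Among the small-subunit genes, 0 fell with 75th percentile scaling. Rps18, in the head of the small subunit, had levels of 4.11, 4.17 and 4.03 on the AD arrays and 4.56, 4.49 and 4.35 on the Sham arrays. The groups did not overlap, and its change was -0.37 ± 0.09 (adjusted p = 0.0546). Rps10 had a change of -0.38 ± 0.11 (adjusted p = 0.0777) and Rps23, near the decoding site, one of -0.41 ± 0.13 (adjusted p = 0.0923). With quantile normalization these 3 changes lay between -0.16 and -0.13. Rps24 had the next largest change above 0 after Rps27a, 0.44 ± 0.31, but its levels overlapped, with 3.55, 3.27 and 3.77 on the AD arrays and 3.03, 3.72 and 2.51 on the Sham arrays, and the change was 0.15 without Sham replicate 3 and 0.75 without Sham replicate 2. Rps6, the substrate of the S6 kinases, had a change of 0.09 ± 0.15, and its other probe one of -0.27 ± 0.08 (adjusted p = 0.0867).

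The other paralogues did not pass by their representing probes. Rpl39 at the exit tunnel had a change of -0.10 ± 0.11 (0.12 ± 0.08 with quantile normalization), and Rpl39l1 one of 0.52 ± 0.49, with levels of -3.83, -4.92 and -2.87 on the AD arrays and -4.65, -4.31 and -4.22 on the Sham arrays. The AD arrays spanned the Sham arrays there, and the change was 0.02 without AD replicate 3 and 1.04 without AD replicate 2. Rps4x had -0.09 ± 0.08 (0.03 ± 0.07 with quantile normalization). Its paralogue Rps4y2 had 0.41 ± 0.26 by the brighter probe (0.22 without AD replicate 2, 0.67 without AD replicate 3 and 0.25 without Sham replicate 3), whereas the other probe passed in the opposite direction, at -0.68 ± 0.16 (adjusted p = 0.0493) and at -0.70 ± 0.17 with quantile normalization (adjusted p = 0.0496).

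Probes of the same gene differed widely. Of 46 genes with several tested probes, 21 had probes with changes of both signs, the median range was 0.225 and it was over 0.5 for 5 genes. The widest were Rps4y2 (-0.68 to 0.41), Rps23 (-0.41 to 0.45) and Rpl37l1 (-0.24 to 0.57). When each gene was given the median of its tested probes, the median of the 79 genes was -0.13 with 75th percentile scaling and 0.06 with quantile normalization. Ribosomal protein genes have near-identical copies in the genome, and which copies a probe can bind was not tested.

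**Figure D5:**
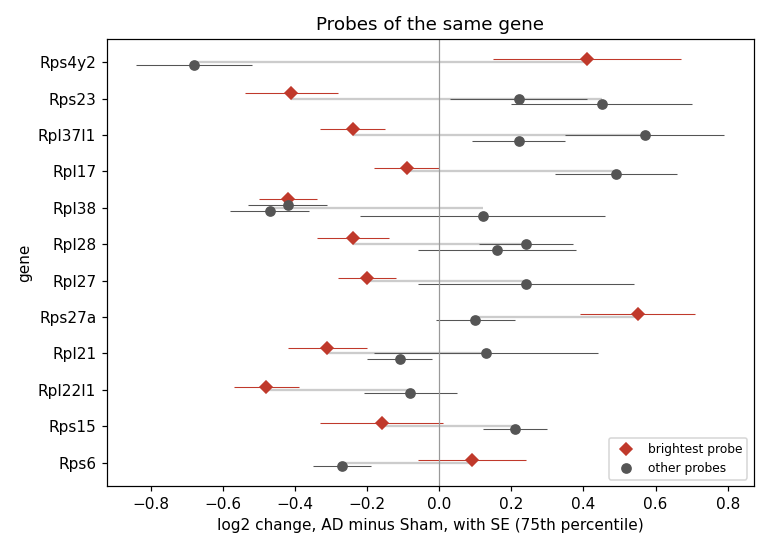
Log2 change with its SE (AD minus Sham, 75th percentile scaling, horizontal axis) of every tested probe of the 12 genes with the widest range (vertical axis), with the brightest probe of each gene as a red diamond and its other probes as grey circles. The brightest probe of Rps4y2 is at 0.41 and its other probe at -0.68, and all of these genes but Rps27a and Rpl22l1 have probes on both sides of 0.

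The pyrimidine run did not go with a distinct change under both scalings. The 42 tested genes with a run of at least 8 had a median log2 change of -0.22, and the 22 without one a median of -0.12, with 75th percentile scaling. With quantile normalization the medians were 0.00 and 0.03. Rpl38 and Rpl22 hold such a run and Rpl22l1 does not, and all of them were lower on all AD arrays with 75th percentile scaling.

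Genes around the ribosome were described from lists, as counts beside all tested probes. The lists were not matched to probes of like brightness. With 75th percentile scaling the share of all tested probes called lower was 2.63% in band 1, the dimmest. It was 13.4%, 17.2% and 18.8% in bands 8, 9 and 10, the brightest. Of 52 tested ribosome biogenesis genes, 10 (19.2%) fell and 0 rose with 75th percentile scaling (median -0.19), beside 8.39% of all tested probes called lower and 4.16% called higher (2 of the 52 were higher at an unadjusted p under 0.05). With quantile normalization 8 (15.4%) fell (median -0.16) and 0 rose (3 higher at an unadjusted p under 0.05), beside 6.87% and 4.27%. Taf1b, a subunit of the selectivity factor of RNA polymerase I, had levels of 0.11, 0.36 and 0.15 on the AD arrays and 1.23, 1.14 and 1.19 on the Sham arrays, without overlap. It fell by 0.98 ± 0.10 (adjusted p = 0.0183) and by 0.93 ± 0.10 with quantile normalization (adjusted p = 0.0192). Polr1d and Polr1c, subunits shared by RNA polymerases I and III, fell by 0.77 ± 0.13 and 0.57 ± 0.10. The nucleolar proteins Gnl3 and Nop16 fell by 0.74 ± 0.09 and 0.70 ± 0.10, and Nop58, of the particles that methylate ribosomal RNA, by 0.59 ± 0.11. Nip7 (-0.56), Ddx21 (-0.50), Surf6 (-0.46) and Ddx10 (-0.41) were the others, of which Ddx21 and Surf6 did not pass with quantile normalization.

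Of 66 mitochondrial ribosomal protein genes, whose products form the separate ribosome of the mitochondrion, 17 (25.8%) fell with 75th percentile scaling (median -0.26), beside 8.39% of all tested probes, and 11 (16.7%) with quantile normalization (median -0.20), beside 6.87%. Under neither scaling did any rise (0 genes, with 1 higher at an unadjusted p under 0.05 under each). The share of all tested probes called lower with 75th percentile scaling ran from 2.63% in brightness band 1 to 18.8% in band 10. These genes were not assigned to bands, and their levels differed widely. Over the 6 arrays they were -5.12 to -4.76 for Mrps18b and 4.72 to 5.15 for Mrpl10. Mrpl2 had levels of 1.92, 1.88 and 1.88 on the AD arrays and 2.57, 2.46 and 2.70 on the Sham arrays. The groups did not overlap, and it fell by 0.68 ± 0.09 (adjusted p = 0.0199) and by 0.54 ± 0.09 with quantile normalization (adjusted p = 0.0238). Against the 3 of 79 cytosolic genes called lower with 75th percentile scaling and 1 of 79 with quantile normalization, the difference between these lists was not tested.

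Of 38 translation factor genes, 3 (7.89%) fell with 75th percentile scaling (median -0.12), a share near the 8.39% of all tested probes. They were Eif2s1, the alpha subunit of initiation factor eIF2 (-0.53 ± 0.10, adjusted p = 0.0273), Eef1b2, which recharges elongation factor eEF1A (-0.52 ± 0.09, adjusted p = 0.0242), and the release factor Etf1 (-0.48 ± 0.08, adjusted p = 0.0262). With quantile normalization the median was -0.01, Eef1b2 and Etf1 fell, and Eef1a2 (0.47 ± 0.10, adjusted p = 0.0371), the elongation factor of neurons and muscle, and Eif2s3 (0.31 ± 0.07, adjusted p = 0.0427) rose. Of 10 tested genes of translation repressors and S6 kinases limma called 0 (3 lower and 2 higher at an unadjusted p under 0.05). Of these 10 genes, 6 had changes below 0 and 4 above with 75th percentile scaling. The S6 kinase gene Rps6kb1 had a change of -0.34 ± 0.13 (adjusted p = 0.144) and Rps6ka3, which encodes a kinase of the RSK family, one of -0.53 ± 0.14 (adjusted p = 0.0608). On the other side of 0 were the eIF4E-binding protein gene Eif4ebp3 (0.33 ± 0.08, adjusted p = 0.0529) and Pdcd4, an inhibitor of the helicase eIF4A (0.32 ± 0.13, adjusted p = 0.159). Genes of both kinds lay on both sides of 0, with Rps6ka2 at 0.02 ± 0.13, Eef2k at -0.43 ± 0.36 and Eif4ebp2 at -0.07 ± 0.09. Of 4 further ribosomal proteins with other names 0 passed under either scaling (0 at an unadjusted p under 0.05), with changes of 0.39 ± 0.36 for Rpsa, -0.02 ± 0.11 for Rack1 and -0.21 ± 0.13 for Fau, the last of which was 0.06 ± 0.13 with quantile normalization.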

How the data were processed

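Expression was measured in 6 hippocampal samples (3 AD, 3 Sham), grouped by their labels. The authors deposited scanner output of Agilent Feature Extraction 11.0.1.1 with a background-subtracted intensity per spot, and a table of log2 values whose scaling is not stated and whose columns had equal medians (6.57), and its values increased with those of the scanner output. In that deposited log2 table the columns of AD replicates 2 and 3 matched the scanner values of each other (Pearson r across probes 0.999 and 0.994), and the numbering of the scanner output was used. The study's methods state no normalization.

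Control spots and outlier spots (400 to 559 per array) were left out, log2 processed intensities were averaged per probe, and the array's 75th percentile was subtracted. Probes entered the test when at least 50% of their spots were well above background on 3 or more of the 6 arrays. AD was compared with Sham with limma 3.58.1 (lmFit, eBayes; R 4.3.3), two-sided, with no covariate and Benjamini-Hochberg adjustment over all 22820 tested probes (threshold 0.05). The number of arrays limits the precision. The labels do not tie samples to animals, so p-values measure the spread between these samples. Accessions were matched to RefSeq symbols (assembly GRCr8): 15252 of 26997 matched, which named 59.3% of probes. The fit was tested on simulated data. The subunit and list medians were not tested.

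The members and lists were chosen with earlier results of these data known, and no list result is independent support. Genes were named if called, if among the 5 largest changes or 3 brightest probes of a subunit, as stalk genes, paralogues or genes with the widest probe ranges, and as called genes of the lists (or up to 2 others), although not all are described. Items withheld for evaluation are not reported here. Rps10, Rps18, Rps6, Rpl17, Rps15, the genes of translation repressors and S6 kinases, marker genes, and further genes of called counts were named after their values were seen. Rps19bp1, which is not a ribosomal protein, was not counted.

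Other settings tried were median scaling, quantile normalization, the 75th percentile over detected probes, normexp correction (offset 50, on median signals), the deposited table, other filters on dim probes, all probes of a gene, scan as a random block (duplicateCorrelation, statmod 1.5.0), scan day 1 alone, the replicate number as a block, the methods' t-test and leaving out each array. The same checks on quantile-normalised values were added after seeing the data.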

Additional observations from a re-analysis of the deposited data

How the results depend on the processing

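The count of 3 called ribosomal protein genes was 5 with median scaling, with the 75th percentile over detected probes (3 lower, 2 higher) and with all probes of a gene, 6 for probes above background on all 6 arrays and 7 within scan day 1. It was 0 with no filter on dim probes (20 genes at an unadjusted p under 0.05), with scan as a random block (7), and at the study's thresholds in the methods' t-test (fold change of at least 2, unadjusted p under 0.05), which called 3 after Benjamini-Hochberg adjustment. It was 2 under normexp correction, which ended the call of Rpl38 and where the median of all tested probes was -0.15. Leaving out 1 array gave 0 to 7. The count over all tested probes, 2864, was 1768 under normexp correction, 1845 by the methods' t-test after adjustment, 4453 within scan day 1 and 0 with no filter or with scan as a random block. Leaving out 1 array gave 0 of all tested probes, except 2 without AD replicate 3 and 4453 without Sham replicate 3. The part called higher was 949 of 2864, 689 of 2841 with median scaling, 1425 of 2678 with the 75th percentile over detected probes and 309 of 1768 under normexp correction. The median log2 change of -0.19 was 0.02 with quantile normalization and with the authors' table, which gave nearly equal results. It was -0.11 with the 75th percentile over detected probes, beside 0.07 for all tested probes. Under normexp correction it was -0.13, beside -0.15 for all tested probes, so these genes were not lower than the array there. Leaving out 1 array gave medians of -0.22 to -0.15. The large minus small difference of -0.12 was -0.08 with quantile normalization, the authors' table and normexp correction, -0.05 within scan day 1, -0.03 with all probes of a gene and -0.15 to -0.05 leaving out 1 array. The changes of Rplp1 (0.12), Rpl39 (0.12) and Rps4x (0.03) reversed with quantile normalization and with the authors' table, and their signs were not called under any setting. The causes were not tested. Gene names from the scanner output could not be used as an alternative and this was not run.

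With quantile normalization, the count of 3 was 0 with scan as a random block (3 at an unadjusted p under 0.05) and 0 to 3 leaving out 1 array, with 3 only without Sham replicate 3. The count over all tested probes, 2541, was 0 in these fits, except 4062 without Sham replicate 3. The median of 0.02 was -0.02 within scan day 1 and -0.02 to 0.04 leaving out 1 array. The large minus small difference of -0.08 was -0.09 with normexp correction, -0.07 with scan as a random block, -0.04 within scan day 1 and -0.09 to -0.04 leaving out 1 array.

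The samples share replicate numbers, and deviations of same-numbered samples correlated at 0.03, 0.07 and 0.14. AD replicates 2 and 3 correlated best with the Sham sample of their own number, and AD replicate 1 with Sham replicate 2 (0.06). With 3 arrays per group these values cannot decide whether the numbers pair the samples, and the main fit used no pairing. With the replicate block limma called 0 ribosomal protein genes under 75th percentile scaling (14 at an unadjusted p under 0.05) and 0 with quantile normalization (5), and 0 of all tested probes.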
